A study of Homo sapiens with 9 samples.

Results

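Dyskerin knockdown was compared directly with GAR1 knockdown by sequencing of nuclear RNA. The cells were U2OS, an osteosarcoma line of human origin. The comparison was defined by the siRNA labels and used 6 of the 9 libraries of the experiment, 3 from cells transfected with siDyskerin and 3 from cells transfected with siGAR1. All cells received siRNA at 15 nM and were taken after 48 hours. The 3 libraries of cells given a control siRNA (siControl) served as a reference and had no weight in the direct difference. They did enter the filter on low counts, the normalization and the estimate of spread behind its p-values. Each group was 3 biological replicates of 1 siRNA reagent, with the control from another supplier than the reagents against the targets, so that loss of the protein and any other effect of the same reagent cannot be told apart.

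Dyskerin, encoded by DKC1, is the pseudouridine synthase of the H/ACA ribonucleoprotein, and GAR1 is a core protein that binds dyskerin and helps the finished particle to turn over its substrates. NHP2 and NOP10 complete the core. H/ACA small RNAs need dyskerin to accumulate, whereas GAR1 joins late, so that the direct comparison shows which nuclear RNAs responded unequally to loss of these partners.

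Reads were estimated per transcript, summed per gene, normalized over libraries and tested with the quasi-likelihood test of edgeR, with p-values adjusted by the Benjamini-Hochberg method over all 18444 genes tested. A gene passed when its adjusted p was under 0.01, and it was called when, in addition, its log2 fold change was below -1 or above 1. All differences below are siDyskerin minus siGAR1 unless stated, so a positive value means more RNA in siDyskerin, and are log2 fold changes, printed with their standard error after ± where the gene's libraries are given. Levels are normalized counts, scaled to the mean library, and compare a gene between groups, not genes with each other. Transcript estimates of the 6 libraries summed to 48838756 to 80228785, in which a read compatible with several transcripts counts more than once. On the first principal component of the 500 most variable genes (34.4% of the variance) siDyskerin replicates scored -12.1, -9.68 and -18.2, whereas those of siGAR1 scored 17.7, 12.1 and 10.1. The second component (20.6%) set siGAR1 replicate 3 apart, with a score of 21.8 against -9.56 to 2.99 elsewhere, and counts that rest on this library are given with and without it.

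Each silenced gene was lowest in its own group. For dyskerin, DKC1 (ENSG00000130826.19 on GRCh38 chromosome X, 154762742 to 154777689) had 20937, 22716 and 20777 normalized counts in siControl, 3075, 3124 and 3099 in siDyskerin and 26060, 24976 and 22628 in siGAR1. The 3 siDyskerin libraries lay far below all others, at 14.4% of the siControl mean. In these bulk samples, fewer cells of a type and less RNA per cell cannot be told apart. GAR1 (ENSG00000109534.17, GRCh38 chromosome 4, 109815510 to 109824740) had 598, 594 and 664 normalized counts in siControl, 714, 718 and 710 in siDyskerin and 92.3, 83.9 and 115 in siGAR1. Its siGAR1 libraries lay at 15.7% of the siControl mean, so that the residual RNA of both targets was of similar size. The differences were -2.99 ± 0.070 (adjusted p = 6.4e-12) for DKC1 and 2.89 ± 0.12 (adjusted p = 1.1e-08) for GAR1. The other core proteins did not pass: NHP2 differed by 0.06 (adjusted p = 0.69) and NOP10 by -0.05 (adjusted p = 0.77). Of 11 listed H/ACA core and assembly proteins, only the 2 silenced genes passed.

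Most mRNAs had similar levels in the knockdowns. The difference was within 0.25 on the log2 scale for 69.9% of the 14175 protein-coding genes and within 0.5 for 90.0%, with a median of 0.0075. Of these genes, 28 were called higher (0.198%) and 37 lower (0.261%) in siDyskerin than in siGAR1, and 455 (3.21%) passed higher and 437 (3.08%) lower. Of the 2518 long noncoding RNA genes, 7 were called higher (0.278%) and 5 lower (0.199%), and 23 (0.913%) passed higher and 17 (0.675%) lower. The 56 remaining calls were of other biotypes, mainly small nucleolar RNAs. Without siGAR1 replicate 3, 50 protein-coding genes were called higher, and leaving out any other library gave 19 to 29.

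**Figure D1:**
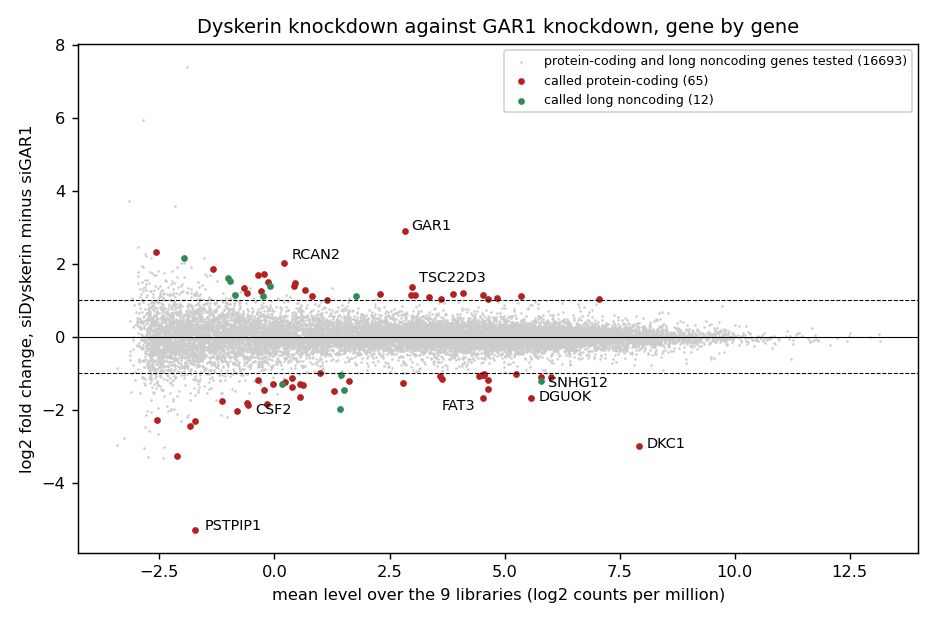
Difference between the knockdowns (log2 fold change, siDyskerin minus siGAR1) against the mean level over 9 libraries (log2 CPM) for the 16693 protein-coding and long noncoding genes tested. Grey points are all genes, red points the 65 called protein-coding genes and green points the 12 called long noncoding genes, and dashed lines mark -1 and 1. Away from DKC1 and GAR1, most called genes of high level lay close to the lines.

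In 4 called protein-coding genes, siDyskerin and siGAR1 lay on opposite sides of siControl and each passed against it. The comparisons with siControl share its 3 libraries. FAT3 (ENSG00000165323.16, GRCh38 chromosome 11, 92224818 to 92896473), a giant cadherin of the FAT family, had 1453, 1397 and 1448 normalized counts in siControl, 771, 786 and 762 in siDyskerin and 2704, 2412 and 2259.6 in siGAR1. All 9 libraries fell into 3 separate bands, with siControl in the middle. The difference was -1.67 ± 0.082 (adjusted p = 3.8e-08), made up of -0.89 for siDyskerin minus siControl and 0.78 for siGAR1 minus siControl. TSC22D3 (GRCh38 chromosome X, 107713221 to 107777342), the glucocorticoid-induced leucine zipper protein GILZ, ran the other way. It had 514, 495 and 410.1 normalized counts in siControl, 719, 847 and 875 in siDyskerin and 318, 287 and 338 in siGAR1. Every siDyskerin library was above siControl and every siGAR1 library below it, and the difference was 1.37 ± 0.12 (adjusted p = 8.1e-06). TMEM64 (GRCh38 chromosome 8, 90621995 to 90791632), a transmembrane protein, had 2926, 2867 and 3109 normalized counts in siControl, 3635, 3848 and 3444 in siDyskerin and 1717, 1675 and 1663 in siGAR1. Its bands were separate too, with a difference of 1.11 ± 0.069 (adjusted p = 6.6e-07). Its siDyskerin side, 0.30 against siControl, only just passed (adjusted p = 0.00998 from edgeR). FZD6 (GRCh38 chromosome 8, 103298433 to 103332866), a frizzled receptor for WNT ligands, had 8411, 9621 and 9282 normalized counts in siControl, 11348, 12480 and 12094 in siDyskerin and 5682, 5844 and 6109 in siGAR1. The same order held for it in every library and the difference was 1.03 ± 0.069 (adjusted p = 1.1e-06). Without siDyskerin replicate 2 the FZD6 difference was 0.99 and was no longer called.

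Apart from the silenced genes, 36 protein-coding genes had calls of lower level in siDyskerin, and in all of them the libraries of the 2 knockdowns did not overlap, as in 32.5% of all protein-coding genes. The point value of siDyskerin was farther from siControl than that of siGAR1 in 26 of the 36 and that of siGAR1 in 10. Against siControl, 19 of them passed only as lower in siDyskerin (3.87% of all protein-coding genes were lower there). Another 4 passed only as higher in siGAR1 (beside 2% of all), CERK as lower in both, FAT3 as described and 11 in neither. The genes were chosen by the same knockdown libraries, so neither the lack of overlap nor these counts is separate support.

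DGUOK (ENSG00000114956.20, GRCh38 chromosome 2, 73926826 to 73958961), the mitochondrial kinase that salvages purine deoxynucleosides, had 4168, 4114 and 3799.9 normalized counts in siControl, 1283, 1352 and 1404 in siDyskerin and 4080.1, 4558 and 4169 in siGAR1. The siGAR1 libraries overlapped siControl and the siDyskerin libraries were all lower, with a difference of -1.67 ± 0.074 (adjusted p = 1.4e-08). Of the 30 tested genes of nucleotide salvage and deoxynucleotide supply, DGUOK was the only one to pass lower, and SLC29A1 (0.35), a nucleoside transporter, and UPP1 (0.32), uridine phosphorylase, passed higher. Neither of the higher genes passed when most single libraries were left out. CERK (GRCh38 chromosome 22, 46684410 to 46738252), which phosphorylates ceramide, had 2527, 2295 and 2363 normalized counts in siControl, 798, 798 and 791 in siDyskerin and 1719, 1984 and 1754 in siGAR1. It was lower than siControl in both knockdowns and lower still in siDyskerin, with a difference of -1.19 ± 0.080 (adjusted p = 1.1e-06). With length-scaled counts the CERK difference was -0.89 and was not called. Of the 33 tested genes of sphingolipid metabolism 5 passed lower and 2 higher, beside 3.08% and 3.21% of all protein-coding genes. The others lower were UGCG (-0.69), glucosylceramide synthase, CERS5 (-0.45), a ceramide synthase, SMPD1 (-0.75), acid sphingomyelinase, and SPTLC1 (-0.33), a subunit of the first enzyme of the pathway. ASAH1 (0.44), acid ceramidase, and SGPL1 (0.30), which cleaves sphingosine phosphate, were higher. The median of the list was -0.01, beside 0.0075 for all protein-coding genes, and 3 to 5 members passed lower when each library was left out in turn, with 3 without siDyskerin replicate 2 or siGAR1 replicate 2.

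PRKACA (GRCh38 chromosome 19, 14091688 to 14118084), the alpha catalytic subunit of protein kinase A, had 1292, 978 and 909 normalized counts in siControl, 492, 445 and 392 in siDyskerin and 1078, 857 and 883 in siGAR1. Its siDyskerin libraries were the 3 lowest, with a difference of -1.08 ± 0.14 (adjusted p = 2.6e-04). PKIB (GRCh38 chromosome 6, 122471917 to 122726373), an inhibitor of the same kinase, had 1428, 1551 and 1399.6 normalized counts in siControl, 2808, 2835 and 3100.1 in siDyskerin and 1214, 1473 and 1529.8 in siGAR1. Here the siDyskerin libraries were the 3 highest, with a difference of 1.05 ± 0.091 (adjusted p = 8.1e-06). Without siGAR1 replicate 1 neither was called, at -0.97 for PRKACA and 0.96 for PKIB, although both still passed the adjusted p. PLCH1 (GRCh38 chromosome 3, 155375580 to 155745071), a phospholipase C, had 474, 507 and 395 normalized counts in siControl, 254, 276 and 291 in siDyskerin and 678, 709 and 587 in siGAR1. It was below siControl in siDyskerin and above it in siGAR1 in every library, with a difference of -1.27 ± 0.12 (adjusted p = 1.6e-05), and only the siDyskerin side passed against siControl. RGS14 (GRCh38 chromosome 5, 177357924 to 177372596), a regulator of G protein signaling, had 289.7, 267 and 219 normalized counts in siControl, 117, 114 and 83.4 in siDyskerin and 227, 269 and 235 in siGAR1, with a difference of -1.20 ± 0.16 (adjusted p = 2.9e-04). Only its siDyskerin libraries stood apart.

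The remaining lower genes of the 12 named by size were low in siDyskerin and close to siControl in siGAR1. PPM1F (GRCh38 chromosome 22, 21919425 to 21952848), a serine/threonine phosphatase, had 5082, 4541 and 4952 normalized counts in siControl, 2211, 1937 and 1960.2 in siDyskerin and 4362, 4693 and 3959.5 in siGAR1, with a difference of -1.09 ± 0.083 (adjusted p = 3.0e-06). STARD3NL (GRCh38 chromosome 7, 38178245 to 38230670), a membrane protein of late endosomes, had 5200.5, 5803 and 5273 normalized counts in siControl, 2224, 2509 and 2397 in siDyskerin and 5064, 5745 and 4548 in siGAR1, with a difference of -1.11 ± 0.088 (adjusted p = 3.7e-06). BRD3OS (GRCh38 chromosome 9, 134025481 to 134034666), which lies opposite BRD3, had 1013, 934 and 952 normalized counts in siControl, 451, 481 and 496 in siDyskerin and 1063, 1056 and 1074 in siGAR1, with a difference of -1.16 ± 0.083 (adjusted p = 2.0e-06). In all 3 genes the siDyskerin libraries were far below the other 6. Counting was strand-specific, so that BRD3 itself, at -0.25, was counted apart. SLC25A22 (GRCh38 chromosome 11, 790475 to 798281), a mitochondrial glutamate carrier, had 2846, 2053 and 1885 normalized counts in siControl, 927, 472 and 883 in siDyskerin and 2256, 2114 and 1691 in siGAR1. siDyskerin replicate 2 was the lowest library and siControl replicate 1 the highest, and the difference was -1.42 ± 0.22 (adjusted p = 9.8e-04). EVI2A (GRCh38 chromosome 17, 31316410 to 31321749), a membrane protein gene that lies on the opposite strand within NF1, had 163, 216 and 209.9 normalized counts in siControl, 60.8, 75.3 and 100.4 in siDyskerin and 236, 235 and 173 in siGAR1, with a difference of -1.47 ± 0.20 (adjusted p = 3.2e-04). EVI2A shares its locus with EVI2B (-2.02) and ENSG00000265118 (-1.83), a gene on the same strand that overlaps both, so the 3 calls are not independent. EVI2B was not called without siDyskerin replicate 1 or 2 or siGAR1 replicate 1. Among called genes of lower level, CSF2, which encodes the cytokine GM-CSF, had 33.2, 31.4 and 27 normalized counts in siControl, 17.1, 25.4 and 21.2 in siDyskerin and 85.8, 84.9 and 64.1 in siGAR1. The 3 groups did not overlap, siGAR1 far above siControl and siDyskerin below it, with a difference of -1.88 ± 0.23 (adjusted p = 1.8e-04), and only the siGAR1 side passed against siControl.

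**Figure D2:**
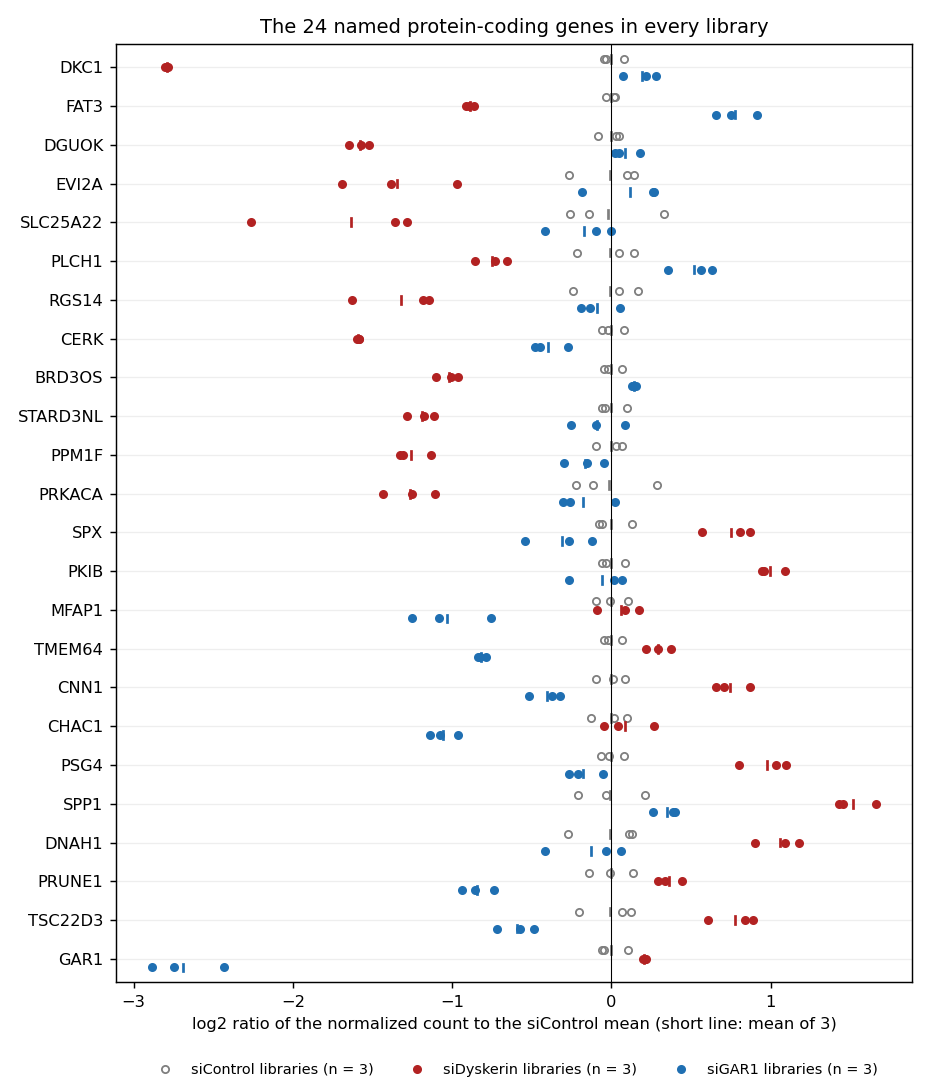
Normalized counts of the 24 protein-coding genes named by size, in each of the 9 libraries, as the log2 ratio to the siControl mean. Points are libraries (n = 3 per group) and short lines group means, and genes run from the lowest to the highest siDyskerin minus siGAR1 difference. FAT3 and TSC22D3 show siControl between the knockdowns, DGUOK and CERK a shift mainly in siDyskerin, and CHAC1 and MFAP1 a shift mainly in siGAR1.

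Apart from GAR1, 27 protein-coding genes were called higher in siDyskerin, each without overlap between the knockdowns. The siDyskerin value was farther from siControl in 18 and the siGAR1 value in 9. Against siControl, 14 passed only as higher in siDyskerin (beside 3.73% of all protein-coding genes) and 4 only as lower in siGAR1 (beside 2.31% of all). A further 3 passed in both directions as described, and 6 in neither. These counts, too, rest on the knockdown libraries by which the genes were chosen. SPP1 (GRCh38 chromosome 4, 87975667 to 87983532), osteopontin, a secreted phosphoprotein of bone matrix, had 568, 672 and 502 normalized counts in siControl, 1592, 1838 and 1564 in siDyskerin and 695, 759 and 764 in siGAR1. It was far higher in siDyskerin than in the other groups and slightly higher in siGAR1 than in siControl, with a difference of 1.17 ± 0.11 (adjusted p = 1.2e-05). CNN1 (GRCh38 chromosome 19, 11538767 to 11550323), calponin, an actin-binding protein of smooth muscle, had 1437, 1268 and 1363 normalized counts in siControl, 2482, 2217 and 2137 in siDyskerin and 948, 1047 and 1082 in siGAR1. Its bands were separate, siDyskerin high and siGAR1 low, with a difference of 1.15 ± 0.087 (adjusted p = 3.0e-06). Its siGAR1 side, -0.40 against siControl, narrowly failed to pass (adjusted p = 0.0106 from edgeR). PSG4 (GRCh38 chromosome 19, 43192702 to 43207299), a pregnancy-specific glycoprotein, had 457, 415 and 429.7 normalized counts in siControl, 928, 756 and 887 in siDyskerin and 375, 361 and 418 in siGAR1, with a difference of 1.16 ± 0.11 (adjusted p = 1.2e-05). DNAH1 (GRCh38 chromosome 3, 52316319 to 52400492), an axonemal dynein heavy chain, had 268, 204 and 265 normalized counts in siControl, 522, 459.6 and 556 in siDyskerin and 239.6, 184 and 256 in siGAR1, with a difference of 1.18 ± 0.15 (adjusted p = 1.8e-04). SPX (GRCh38 chromosome 12, 21526296 to 21541249), the peptide hormone spexin, had 671, 679 and 773 normalized counts in siControl, 1048, 1296 and 1236 in siDyskerin and 588, 652 and 487 in siGAR1, with a difference of 1.05 ± 0.12 (adjusted p = 7.4e-05). In these 3 genes the siDyskerin libraries stood above the 6 others. DNAH1 was not called with length-scaled counts (0.78, adjusted p = 0.21 from edgeR), and SPX not without siDyskerin replicate 2 (0.98) or siGAR1 replicate 3 (0.94).

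In 4 of the 27, siGAR1 alone passed against siControl. PRUNE1 (GRCh38 chromosome 1, 151008420 to 151035713), an exopolyphosphatase, had 1214, 1106 and 1339.5 normalized counts in siControl, 1539.5, 1659 and 1496 in siDyskerin and 731, 635 and 673 in siGAR1. The siGAR1 libraries were far below the rest and the siDyskerin libraries the highest, with a difference of 1.20 ± 0.093 (adjusted p = 3.4e-06). MFAP1 (GRCh38 chromosome 15, 43804492 to 43824690), a component of the spliceosome, had 764, 879.8 and 813 normalized counts in siControl, 770.2, 924 and 868 in siDyskerin and 386, 344 and 484 in siGAR1. The siDyskerin and siControl libraries overlapped and the siGAR1 libraries lay below both, with a difference of 1.08 ± 0.12 (adjusted p = 8.8e-05). ADAM11, a membrane protein of the ADAM family, had 170, 130 and 125 normalized counts in siControl, 139.6, 141 and 140 in siDyskerin and 70.8, 50.5 and 72.7 in siGAR1, with the same layout and a difference of 1.12 ± 0.18 (adjusted p = 0.0015). Without siGAR1 replicate 2, MFAP1 (0.98) and ADAM11 (0.96) were no longer called. CHAC1 is described with its list below.

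Called protein-coding genes of low level had wider errors. RCAN2, a regulator of calcineurin, had 48.7, 38.6 and 16 normalized counts in siControl, 139.6, 156 and 181 in siDyskerin and 28, 26.3 and 64.1 in siGAR1, with a difference of 2.04 ± 0.34 (adjusted p = 0.0018). Its siDyskerin libraries stood far above the other 6. PSTPIP1, an adaptor of the cytoskeleton, had 43.3, 10.8 and 6.14 normalized counts in siControl, 0, 1.75 and 0 in siDyskerin and 40.1, 32.3 and 21 in siGAR1, so that siDyskerin was at or near 0, and at these counts no fold is given. Both genes were chosen after their values were seen. By the rule on opposite sides of siControl, 6 further genes of low level were named, and none of them passed against siControl on both sides. They were SLCO1B1 (-2.30), an organic anion transporter, EVI2B (-2.02), NPAS1 (-1.76), a neuronal transcription factor, LY9 (2.33), a lymphocyte receptor, FLT1 (-2.43), a VEGF receptor, and CALB1 (-2.28), calbindin. All but SLCO1B1 lost the call when 1 or more single libraries were left out. At the threshold of the call, SMPDL3B on the higher and BCO2 on the lower side lay within 0.01 inside it, and ANK2 (0.96) and OSTC (-0.99) were the nearest passing genes outside.

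Of the lists of protein-coding genes by function, the ATF4 amino acid response had the largest share of members that passed. ATF4 is a transcription factor whose translation rises when amino acids run short or the endoplasmic reticulum is stressed, and its targets import amino acids, make serine, proline and asparagine and charge tRNAs. Of the 40 listed genes, all tested, 17 (42.5%) passed higher in siDyskerin and 0 passed lower, against 3.21% and 3.08% of all protein-coding genes. This list, like the others, was chosen with earlier results of these data known, so the contrast is a description and no independent support. At an unadjusted p under 0.05 in the edgeR test, 31 differed, beside 4126 of all 14175 protein-coding genes. The median difference was 0.31 and 34 of the 40 were above 0. The libraries of the knockdowns did not overlap for 28 of the 40, with siDyskerin higher in 27, beside no overlap in 32.5% of all protein-coding genes. The 17 passing genes differed by 0.34 to 1.15 on the log2 scale, so that CHAC1 alone was called. The count was 15 to 17 when each library was left out in turn and 17 to 19 under the other alternatives.

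Serine synthesis was among the processes the list covers. PHGDH (ENSG00000092621.13, GRCh38 chromosome 1, 119648411 to 119744218), its first enzyme, had 58804, 55057 and 54246 normalized counts in siControl, 76453, 71438 and 71276 in siDyskerin and 38513, 42062 and 42455 in siGAR1. The 3 groups did not overlap, with siControl in the middle, and the difference was 0.83 ± 0.060 (adjusted p = 2.0e-06). PSAT1 (GRCh38 chromosome 9, 78297125 to 78330093), the next enzyme, had 3447, 3274 and 3279 normalized counts in siControl, 3605, 3920.2 and 3676 in siDyskerin and 2157, 2214 and 2075 in siGAR1. The siGAR1 libraries lay well below siControl and the siDyskerin libraries just above it, with a difference of 0.80 ± 0.066 (adjusted p = 5.7e-06). PSPH, the last enzyme, passed as well (0.57). ALDH1L2 (GRCh38 chromosome 12, 105019784 to 105107643), a mitochondrial folate enzyme, had 1047, 1053 and 1059.5 normalized counts in siControl, 1419.9, 1440.1 and 1369 in siDyskerin and 696, 726 and 775 in siGAR1. It was above siControl in siDyskerin and below it in siGAR1, passing in both, with a difference of 0.95 ± 0.077 (adjusted p = 4.9e-06). The folate enzymes SHMT2, MTHFD2 and MTHFD1L did not pass, with SHMT2 at 0.15, MTHFD2 at 0.17 and MTHFD1L at -0.04.

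Amino acid transporters and other enzymes followed. ASNS (GRCh38 chromosome 7, 97851677 to 97872542), asparagine synthetase, had 25176, 25319 and 24109 normalized counts in siControl, 25677, 28766 and 26573 in siDyskerin and 17058, 16990 and 16586 in siGAR1. Its siDyskerin libraries lay just above siControl and its siGAR1 libraries far below, with a difference of 0.68 ± 0.058 (adjusted p = 8.1e-06). SLC1A4 (GRCh38 chromosome 2, 64988477 to 65023865), a transporter of alanine and serine, had 2504, 2216 and 2176 normalized counts in siControl, 2446, 2214 and 2404 in siDyskerin and 1145, 1239 and 1294 in siGAR1. The siDyskerin and siControl libraries overlapped and the siGAR1 libraries were all far below, with a difference of 0.94 ± 0.082 (adjusted p = 8.3e-06). CHAC1 (ENSG00000128965.13, GRCh38 chromosome 15, 40952962 to 40956512), which degrades glutathione, had 626, 567 and 663 normalized counts in siControl, 745, 636 and 598 in siDyskerin and 281, 317 and 293 in siGAR1. The layout was the same and the difference was 1.15 ± 0.11 (adjusted p = 1.9e-05). SLC7A11 (GRCh38 chromosome 4, 138164097 to 138242349), the cystine transporter, had 3144, 3940.5 and 3839 normalized counts in siControl, 7432, 8122 and 7666 in siDyskerin and 4177, 4196 and 3813 in siGAR1. Here, its siGAR1 libraries overlapped siControl and its siDyskerin libraries stood far above both, with a difference of 0.93 ± 0.085 (adjusted p = 1.2e-05).

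The other members that passed lay outside the rule by which genes were named and are given for completeness of the list. They were VLDLR (0.82), a lipoprotein receptor, NUPR1 (0.92), a stress-induced nuclear protein, CTH (0.80), of cysteine synthesis, DDIT4 (0.63), an inhibitor of mTORC1, PCK2 (0.59), mitochondrial phosphoenolpyruvate carboxykinase, GPT2 (0.54), an alanine aminotransferase, ATF4 itself (0.48), PYCR1 (0.45), of proline synthesis, and AARS1 (0.34), alanyl-tRNA synthetase. The 6 members below 0 included the stress genes SESN2 (-0.35, adjusted p = 0.013 from edgeR), DDIT3 (-0.30) and ATF3 (-0.15), none of which passed. TRIB3, a kinase-like protein often used to read out ATF4, was at 0.32 (adjusted p = 0.040 from edgeR) and did not pass.

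Beside siControl, the separation lay more on the siGAR1 side. The median of the 40 genes was -0.31 for siGAR1 minus siControl, with 36 below 0 and 13 passing lower, and 0.03 for siDyskerin minus siControl, with 24 above 0, 6 passing higher and 1 passing lower. These shares compare with the 2.31% and 3.73% given above for all protein-coding genes. Of the 17 genes that passed in the direct comparison, siGAR1 was the farther from siControl in 13. INHBE, an inhibin subunit, is not in the list and was chosen after its values were seen. It had 34.8, 35.9 and 46.7 normalized counts in siControl, 121, 70.9 and 65.1 in siDyskerin and 28, 27.3 and 24.7 in siGAR1. The 3 groups did not overlap, siDyskerin highest and siGAR1 lowest, and the difference was 1.68 ± 0.27 (adjusted p = 0.0011). Unlike most of the list, INHBE passed against siControl only on the siDyskerin side (1.15, beside -0.53 for siGAR1). Of 24 tested endoplasmic reticulum chaperones and stress response genes, 1 passed higher (XBP1, a transcription factor, 0.60) and 1 lower (HYOU1, a chaperone, -0.29), and the median was -0.01. Both counts stand beside 3.21% higher and 3.08% lower of all protein-coding genes. HYOU1 did not pass when most single libraries were left out.

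**Figure D3:**
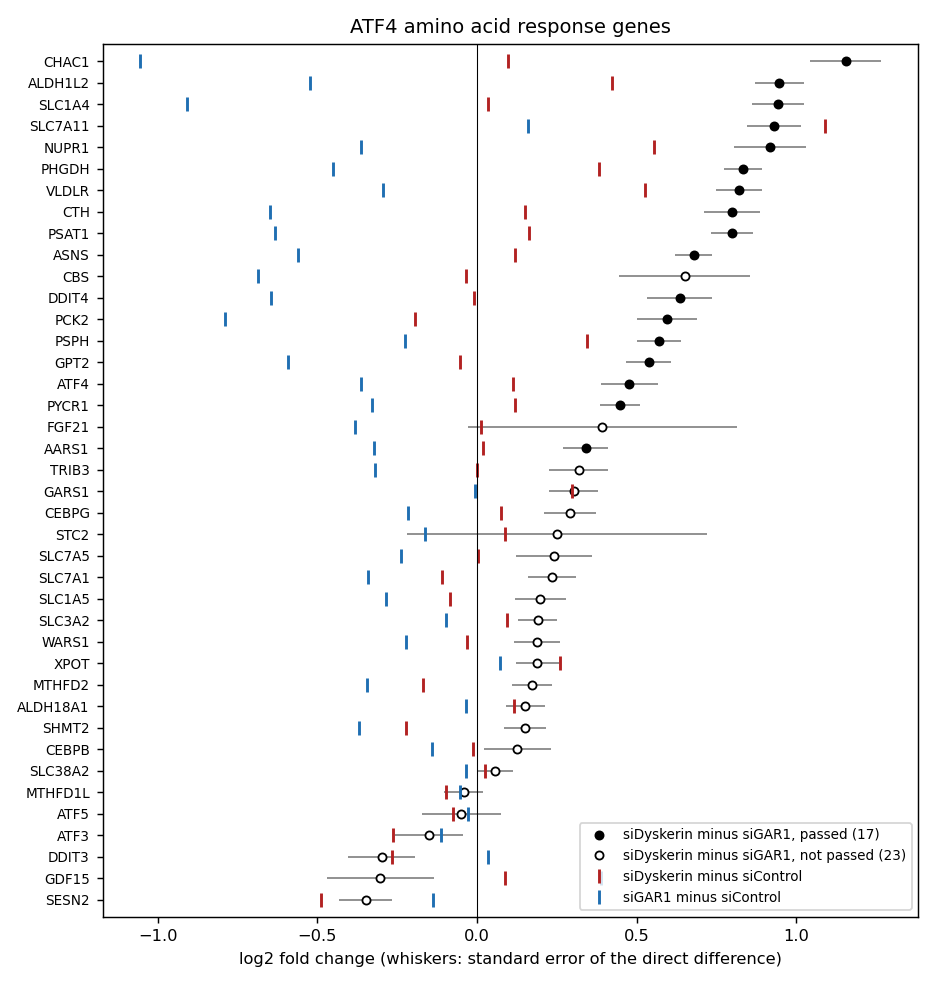
Log2 fold changes of the 40 ATF4 amino acid response genes. Circles give siDyskerin minus siGAR1 with its standard error (filled, the 17 that passed at an adjusted p under 0.01), and red and blue ticks give siDyskerin minus siControl and siGAR1 minus siControl, which share the siControl libraries. From CHAC1 (1.15) down, 34 circles lie above 0, and most blue ticks lie below 0.

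As 17 of these genes passed in the same direction, the promoters of the list were searched for the core of the element bound by ATF4 with C/EBP partners, TGATGNAA, on both strands. The windows ran from 250 bases before to 50 after each RefSeq gene start on GRCh38.p14 and were available for 33 of the 40 genes and 11 of the 17 that passed. The core was present in 8 of the 33 (24.2%), in 3.67% of all 27305 promoters and in 1.92% of the 12081 promoters of genes tested. As the list gathers ATF4 targets, its larger share follows in part from how it was chosen. Within the list, the core was found in 3 of the 11 that passed higher (27.3%) and 5 of the 22 that did not (22.7%), a description of these letters and not of binding. The 3 promoters are printed 5′ to 3′ on the strand of the gene with the match in capitals, for ASNS at chr7:97872359-97872658 (minus strand, match at -68 from the gene start), CHAC1 at chr15:40953221-40953520 (plus strand, match on the reverse strand at -209) and AARS1 at chr16:70289457-70289756 (minus strand, match on the reverse strand at -187).
ASNS: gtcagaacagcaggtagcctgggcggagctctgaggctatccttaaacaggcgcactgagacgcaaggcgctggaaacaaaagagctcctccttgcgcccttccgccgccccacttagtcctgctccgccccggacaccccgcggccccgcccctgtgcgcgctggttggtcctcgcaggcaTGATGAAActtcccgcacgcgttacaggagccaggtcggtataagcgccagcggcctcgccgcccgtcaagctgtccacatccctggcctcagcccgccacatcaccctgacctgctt
CHAC1: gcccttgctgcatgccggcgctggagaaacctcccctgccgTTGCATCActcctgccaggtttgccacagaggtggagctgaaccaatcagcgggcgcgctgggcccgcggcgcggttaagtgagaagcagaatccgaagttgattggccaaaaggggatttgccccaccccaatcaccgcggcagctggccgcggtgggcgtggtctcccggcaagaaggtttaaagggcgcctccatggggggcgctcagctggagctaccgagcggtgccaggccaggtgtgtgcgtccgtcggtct
AARS1: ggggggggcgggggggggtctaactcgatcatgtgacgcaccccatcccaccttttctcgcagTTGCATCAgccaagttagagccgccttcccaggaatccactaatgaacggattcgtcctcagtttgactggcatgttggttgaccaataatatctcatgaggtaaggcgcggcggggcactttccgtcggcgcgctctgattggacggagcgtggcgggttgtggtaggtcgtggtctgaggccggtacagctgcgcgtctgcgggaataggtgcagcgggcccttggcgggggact
ASNS and CHAC1 hold the match in windows of genes that differed by 0.68 and 1.15, whereas PHGDH, PSAT1 and SLC1A4, with differences of similar size, held none in the same window.

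Targets of serum response factor (SRF) and YAP and genes of the actin cytoskeleton split. Of 52 tested, 5 passed higher and 3 lower, beside 3.21% and 3.08% of all protein-coding genes, and the median was -0.01. SRF (ENSG00000112658.8, GRCh38 chromosome 6, 43171269 to 43181506), which drives actin and muscle-type contractile genes, had 1265, 1071 and 1064 normalized counts in siControl, 1085, 933 and 849 in siDyskerin and 532, 491 and 478 in siGAR1. The siGAR1 libraries lay far below the others, with a difference of 0.93 ± 0.11 (adjusted p = 1.0e-04). TAGLN (GRCh38 chromosome 11, 117199370 to 117207464), transgelin, had 9652, 9638 and 8425 normalized counts in siControl, 9806, 9406 and 8829.5 in siDyskerin and 5295, 6013 and 5668 in siGAR1. Again only the siGAR1 libraries stood apart, with a difference of 0.72 ± 0.075 (adjusted p = 3.5e-05). CNN1, described above, MYL9 (0.50), a myosin light chain, and TPM1 (0.39), tropomyosin, were the others that passed higher. ACTG1 (-0.61), cytoplasmic gamma actin, had 212770, 176730 and 176990 normalized counts in siControl, 130690, 113310 and 107020 in siDyskerin and 185270, 174390 and 175080 in siGAR1. Here the siDyskerin libraries alone were low. LATS2 (-0.75), a kinase that restrains YAP, and FOSL1 (-0.37), a FOS family factor, also passed lower. Without siDyskerin replicate 2, siGAR1 replicate 1 or siGAR1 replicate 2 the count higher was 3.

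Promoters of the list were searched for the CArG box, the palindromic element bound by SRF. It was present in 8 of the 42 windows available (19%), in 1.29% of all promoters and in 1.08% of those of genes tested. The list gathers SRF targets among others, so its larger share follows in part from how it was chosen. Of genes that passed, SRF held 2 matches, at -30 and -10 from the gene start, and ACTG1 held 1, at -94, and these genes differed in opposite directions. The windows of SRF (chr6:43171019-43171318, plus strand) and ACTG1 (chr17:81512750-81513049, minus strand) are printed with the boxes in capitals.
SRF: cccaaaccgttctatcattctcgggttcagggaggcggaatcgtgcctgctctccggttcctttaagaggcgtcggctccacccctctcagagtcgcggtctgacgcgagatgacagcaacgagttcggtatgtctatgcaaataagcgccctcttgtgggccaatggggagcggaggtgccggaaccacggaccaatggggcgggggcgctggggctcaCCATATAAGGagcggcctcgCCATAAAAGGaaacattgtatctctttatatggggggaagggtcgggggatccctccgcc
ACTG1: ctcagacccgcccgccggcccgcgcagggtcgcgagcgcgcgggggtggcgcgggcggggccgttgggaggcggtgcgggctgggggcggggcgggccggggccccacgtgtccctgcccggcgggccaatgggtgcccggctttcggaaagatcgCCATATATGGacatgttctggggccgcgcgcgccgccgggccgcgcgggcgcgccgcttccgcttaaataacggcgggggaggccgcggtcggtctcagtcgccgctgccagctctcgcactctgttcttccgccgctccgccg
No match in CNN1 and TPM1 says only that the letters are not in these windows.

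Most oxidative stress and sterol genes were slightly above 0. Of 30 tested genes listed as NRF2 antioxidant targets, 4 passed higher and 0 lower, beside 3.21% and 3.08% of all protein-coding genes. Their median was 0.20 and 24 were above 0. OSGIN1, an oxidative stress-induced growth inhibitor, had 1331, 1388 and 1337 normalized counts in siControl, 2486, 1906 and 2147 in siDyskerin and 1275, 1395 and 1267 in siGAR1. Its siDyskerin libraries were all higher than the other 6, with a difference of 0.73 ± 0.093 (adjusted p = 2.1e-04). SLC7A11, PIR (0.66), a pirin, and TXNRD1 (0.31), thioredoxin reductase, were the others, and the count was 2 without siGAR1 replicate 1 or 2 and 7 with DESeq2, a second count test. Of 30 cholesterol synthesis and uptake genes, 4 passed higher and 0 lower, beside the same shares (median 0.17, 25 above 0). They were LSS (0.48), lanosterol synthase, DHCR7 (0.40), SCD (0.32), a fatty acid desaturase, and SC5D (0.30). That count was 1 to 2 without any of siDyskerin replicates 1 to 3 or siGAR1 replicates 1 and 3, and 10 with DESeq2.

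Most mitotic genes were slightly below 0. Of 50 listed G2/M and mitosis genes, 5 passed lower and 0 higher, beside 3.08% and 3.21% of all protein-coding genes, the median was -0.16 and 43 were below 0. AURKB, the Aurora B kinase, had 5258, 4523 and 4395 normalized counts in siControl, 2565, 2588 and 2304 in siDyskerin and 4531, 4806 and 4687 in siGAR1. Its siDyskerin libraries were the 3 lowest and the siGAR1 libraries overlapped siControl, with a difference of -0.91 ± 0.080 (adjusted p = 8.5e-06). PRC1 (-0.35), of the spindle midzone, ECT2 (-0.51), of cytokinesis, MAD2L1 (-0.33), of the spindle checkpoint, and AURKA (-0.25), the Aurora A kinase, followed. The count was 1 without siDyskerin replicate 1, 2 without siDyskerin replicate 2, siGAR1 replicate 1 or siGAR1 replicate 2, and 3 without siDyskerin replicate 3, siControl replicate 2 or siControl replicate 3, and it was 8 with DESeq2 and 3 with length-scaled counts. AURKB passed in all of these. Of 50 G1/S and replication genes, 2 passed in each direction, with a median of 0.09. MCM7 (0.32), of the replicative DNA helicase, passed higher, and RPA1 (-0.49), which binds single-stranded DNA, and GINS1 (-0.43) lower. RPA1 passed in every fit, MCM7 not without siGAR1 replicate 1, and GINS1 not without several of the single libraries.

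Most splicing and speckle proteins were slightly below 0 as well. Of 56 tested, 7 passed lower and MFAP1 passed higher, beside 3.08% and 3.21% of all protein-coding genes. The median was -0.12 and 48 were below 0. SON, a scaffold of nuclear speckles, had 33206, 34544 and 35606 normalized counts in siControl, 25272, 24801 and 24433 in siDyskerin and 43574, 37332 and 40781 in siGAR1. It was below siControl in siDyskerin and above it in siGAR1 in all libraries, with a difference of -0.71 ± 0.063 (adjusted p = 8.9e-06). SRRM1, a speckle protein, had 10397, 11092 and 11719 normalized counts in siControl, 8649, 8938 and 9211 in siDyskerin and 14311, 12442 and 16745 in siGAR1, with the same order and a difference of -0.70 ± 0.091 (adjusted p = 2.5e-04). PRPF4 (-0.50), PRPF3 (-0.33), RBM25 (-0.39), SRSF4 (-0.29) and HNRNPU (-0.24) also passed lower. The count was 3 without any 1 of the libraries except siControl replicate 1 and siGAR1 replicate 3, and also with length-scaled counts, and 4 in a fit of the 6 knockdown libraries alone. The median of siGAR1 minus siControl over the list was 0.11 and that of siDyskerin minus siControl -0.03.

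Other lists held few genes that passed, to be read beside 3.21% higher and 3.08% lower of all protein-coding genes. All 13 mitochondrially encoded mRNAs were below 0, with a median of -0.37, and MT-CO1 (-0.37) and MT-CO2 (-0.44), subunits of cytochrome oxidase, passed, but not when most single libraries were left out. Of 85 cytosolic ribosomal protein genes RPL26 alone passed, with 26980, 26814 and 24939 normalized counts in siControl, 14815, 16345 and 14721 in siDyskerin and 32557, 27795 and 25989 in siGAR1. The siDyskerin libraries alone were low, with a difference of -0.91 ± 0.080 (adjusted p = 8.5e-06), while the median of the list was -0.03. Of 62 ribosome biogenesis factors 3 passed lower, RRP1B (-0.51), DDX47 (-0.43) and UTP18 (-0.38), near the 3.08% of all protein-coding genes, and UTP18 did not pass when siGAR1 replicate 1 or 2 or any single siDyskerin library was left out. Of 12 other pseudouridine synthases PUSL1 (0.71) and TRUB1 (0.45) passed higher, TRUB1 not without several of the single libraries. Of 36 NF-kB targets and cytokines 3 passed lower, CSF2 (-1.88), SAA1 (-1.47), an acute phase protein, and NFKBIZ (-0.31), an inhibitor of NF-kB. TNFRSF9 (0.61), a receptor of the tumor necrosis factor family, passed higher, but not when any single library was left out, and NFKBIZ did not pass when most single libraries were. Of 40 bone and matrix genes THBS1, thrombospondin, was lower, with 34306, 32868 and 33617 normalized counts in siControl, 16264, 15373 and 15912 in siDyskerin and 33780, 31643 and 29089 in siGAR1. Only its siDyskerin libraries stood apart, and the difference, -0.99 ± 0.063 (adjusted p = 6.7e-07), was just short of a call. SPP1 and TNC (0.34) passed higher, TNC not without siDyskerin replicate 1 or 2 or siGAR1 replicate 2 or 3. No type I interferon response gene passed of 29 and no telomerase or shelterin gene of 13, with 5 and 3 at an unadjusted p under 0.05 in the edgeR test. Of all 14175 protein-coding genes, 4126 were at such a p, so neither count is a sign of a difference.

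**Figure D4:**
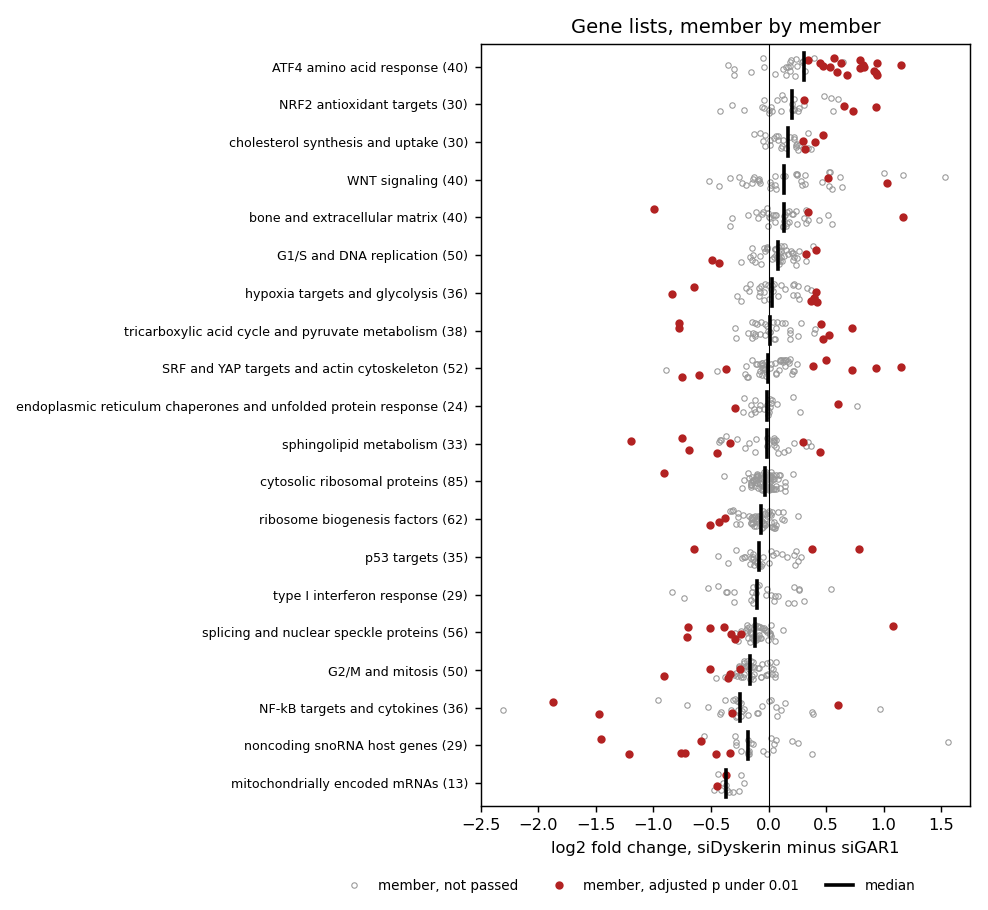
Log2 fold changes (siDyskerin minus siGAR1) of the tested members of 20 gene lists, with the number of members in brackets. Red points passed at an adjusted p under 0.01, open grey points did not, and black lines are medians. The ATF4 list has the highest median (0.31) of the lists drawn and the mitochondrially encoded mRNAs the lowest (-0.37).

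Families defined by symbol and further lists gave more counts, to be read beside 3.21% higher and 3.08% lower of all protein-coding genes. Of 258 solute carriers 19 passed higher and 9 lower, so the count lower was near the background and the count higher above it. The median of this family was 0.08 and 160 were above 0. Of single members, SLC1A4 (0.94) and SLC7A11 (0.93), described above, were higher. SLC26A2, a sulfate transporter, and SLC37A3 were lower (both -0.69), and SLC2A1, the glucose transporter GLUT1, was lower at -0.65. It had 7046, 5897 and 6157 normalized counts in siControl, 4682, 4256 and 3949 in siDyskerin and 6809, 6917 and 6498 in siGAR1. Its siDyskerin libraries alone were low. EPAS1, the hypoxia factor HIF2A, was lower as well (-0.84), in a list of 36 hypoxia and glycolysis genes of which 4 passed higher and 2 lower. The median of that list was 0.03 and 21 of its members were above 0, so the lower genes do not stand for it. Of 38 genes of the tricarboxylic acid cycle and pyruvate metabolism, SUCLA2 (-0.78) and ME3 (-0.78) passed lower and 4 higher, among them IDH1 (0.47) and IDH3G (0.52), and the count higher was 1 without siGAR1 replicate 2 and 2 without siDyskerin replicate 1 or siGAR1 replicate 1. ME3 did not pass without siDyskerin replicate 1 or 2 or siGAR1 replicate 2, with length-scaled counts or with 1 transcript per gene. Of 458 ZNF genes 5 passed higher and 7 lower, and ZNF778 differed most (0.93). Of 30 ADAM and ADAMTS proteases 4 passed higher, with ADAMTS1 (0.71) and ADAM12 (0.55) beside ADAM11, and ADAM32 (-0.61) lower.

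Among signaling lists, of 40 WNT genes FZD6 and SFRP1 (0.51), a secreted WNT antagonist, passed higher. Shares of all protein-coding genes were 3.21% higher and 3.08% lower. Of 37 TGF-beta and BMP genes the activin antagonist FST (-0.39) and the activin subunit INHBA (-0.34) passed lower, neither of them when siDyskerin replicate 1 or 3 or siGAR1 replicate 1 was left out. Of 35 p53 targets TP53INP1 (0.79), of autophagy and cell death, and PMAIP1 (0.38), a BH3-only protein, passed higher and the death receptor FAS (-0.65) lower, and PMAIP1 did not pass when most single libraries were left out.

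Long noncoding RNAs differed in both directions. SNHG12 (ENSG00000197989.15, GRCh38 chromosome 1, 28578538 to 28583132), whose span holds SNORA61, SNORA16A and SNORA44, had 4821, 4809 and 4663 normalized counts in siControl, 2084, 2072 and 1700 in siDyskerin and 5122, 4266 and 4207 in siGAR1. Its siDyskerin libraries were far below the other 6, with a difference of -1.21 ± 0.093 (adjusted p = 3.4e-06), and it was called as well when transcripts whose exons overlap small RNA genes were left out. ENSG00000272599 (GRCh38 chromosome 10, 73124573 to 73125532), an unnamed gene opposite NUDT13, had 223, 201 and 231 normalized counts in siControl, 65.5, 51.7 and 76.4 in siDyskerin and 242, 267 and 238 in siGAR1, with a difference of -1.97 ± 0.16 (adjusted p = 3.7e-06). Again only siDyskerin was low, while NUDT13 itself differed by 0.13. PPP1R3B-DT (GRCh38 chromosome 8, 9151695 to 9425524), a divergent transcript, had 219, 234 and 226 normalized counts in siControl, 85.5, 129 and 94.8 in siDyskerin and 213, 246 and 182 in siGAR1, with a difference of -1.05 ± 0.17 (adjusted p = 0.0012). Without siDyskerin replicate 1, siDyskerin replicate 3 or siGAR1 replicate 2 it was above -1 and not called. SNHG25, whose span holds SNORA50C, had 292, 258 and 247 normalized counts in siControl, 84.5, 94.5 and 59.4 in siDyskerin and 252, 212 and 199.7 in siGAR1, with a difference of -1.45 ± 0.17 (adjusted p = 1.0e-04). Without transcripts overlapping small RNA genes its difference was -1.11 and did not pass (adjusted p = 0.090 from edgeR). ENSG00000266088 was the remaining lower call (-1.31), lost without siDyskerin replicate 1 or siGAR1 replicate 1.

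Against siControl, all 5 lower genes passed as lower in siDyskerin (beside 0.794% of all long noncoding genes) and none passed in siGAR1. They were chosen by the same knockdown libraries, so this count is set in part by the choice. LINC00862 (GRCh38 chromosome 1, 200253419 to 200400705), the 1 long noncoding RNA called higher that met the level required for naming, had 192, 214 and 151 normalized counts in siControl, 346, 327 and 355 in siDyskerin and 131, 134 and 211 in siGAR1. The siDyskerin libraries were the 3 highest, with a difference of 1.12 ± 0.18 (adjusted p = 0.0012). Without siGAR1 replicate 1 its difference was just under 1 and it was not called. The 6 others, chosen here after their values were seen, were at mean levels under 100 normalized counts in every group: MSC-AS1 (1.38), LINC01638 (1.12), LINC01630 (2.16), TWF2-DT (1.53), ENSG00000262712 (1.63) and ENSG00000229261 (1.14). The count of long noncoding RNAs called higher fell from 7 to 1 without siGAR1 replicate 1, 2 without siDyskerin replicate 1, 3 without siDyskerin replicate 2 or siGAR1 replicate 2 and 4 without siDyskerin replicate 3. The count called lower was 3 without siDyskerin replicate 1. No gene of 23 abundant and nuclear-retained long noncoding RNAs passed in the edgeR test, and 5 were at an unadjusted p under 0.05. Of all 2518 long noncoding genes, 357 were at such a p. Of 29 noncoding hosts of small nucleolar RNAs, 7 passed lower and 0 higher, beside 0.675% and 0.913% of all long noncoding genes, with 11 lower with 1 transcript per gene and 3 lower when transcripts overlapping small RNA genes were left out. In the fit without those transcripts SNHG3 differed by -0.27 (adjusted p = 0.026 from edgeR), beside -0.76 with all transcripts.

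**Figure D5:**
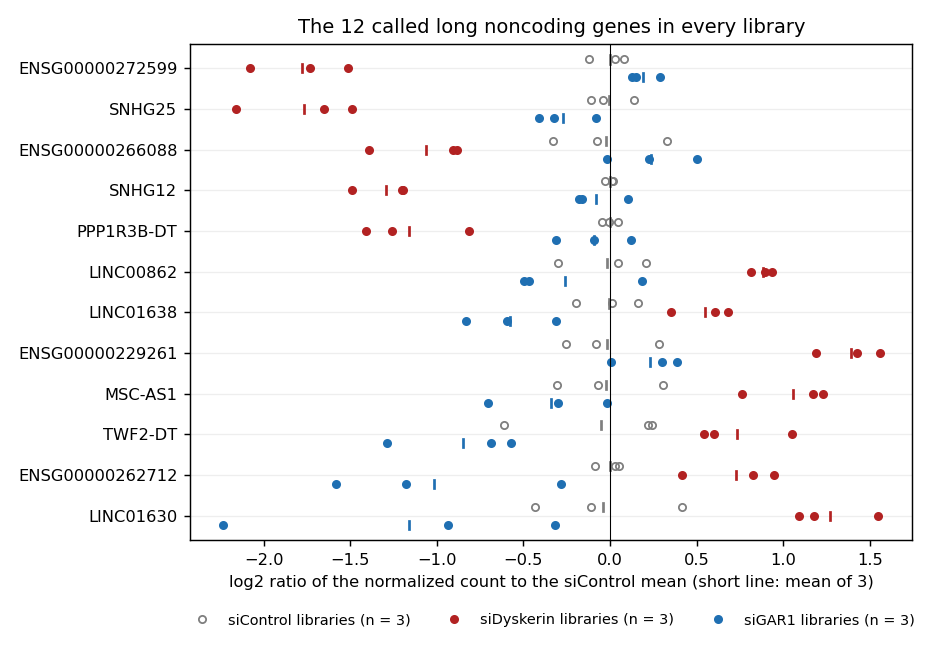
Normalized counts of the 12 called long noncoding genes in each of the 9 libraries, as the log2 ratio to the siControl mean. Points are libraries (n = 3 per group) and short lines group means. The 5 upper genes are low in siDyskerin alone. The knockdown libraries overlap in none of the 12, beside no overlap in 21.3% of all long noncoding genes. Lack of overlap follows in part from the choice of called genes.

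The use of transcripts within a gene differed in 26 of 12644 genes with at least 2 transcripts (0.206%; edgeR's diffSpliceDGE, Simes p per gene adjusted to under 0.01), 22 of them protein-coding. A read counts in every compatible transcript, so transcripts of a gene share reads, whereas the test takes them as separate. The usage differences and their p-values are therefore descriptions of these estimates and not measures of isoform shares. In 5 of the 26 (19.2%) the leading transcript had an exon that covers a small nucleolar or Cajal body RNA gene on the same strand, against 0.332% of all genes tested, and in these 5 genes its usage was lower in siDyskerin. The leading transcript of RPS2, a ribosomal protein, was ENST00000527826, a retained intron over SNORA64. It had 211 ± 3.88 normalized counts (SD, n = 3) in siControl, 121 ± 17.5 in siDyskerin and 219 ± 39.1 in siGAR1 and a usage difference of -0.71 on the log2 scale (adjusted p = 2.2e-10 from edgeR). That of EIF4A1, the RNA helicase of translation initiation, was ENST00000579085, a retained intron over SNORA48. It had 425 ± 2.13 normalized counts (SD, n = 3) in siControl, 236 ± 23.7 in siDyskerin and 476 ± 71.5 in siGAR1 and a usage difference of -0.57 on the log2 scale (adjusted p = 1.2e-09 from edgeR). In both, siGAR1 was close to siControl. Reads of the small RNA and of the intron around it cannot be told apart in these values. CSKMT (over SNORA57) and SNHG20 (over SCARNA16) were others.

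No such RNA gene lies in the leading transcripts of the next 3 named genes. BUB1, a kinase of the spindle checkpoint, had a leading transcript, ENST00000478175, with 1747 ± 25.5 normalized counts (SD, n = 3) in siControl, 818 ± 83 in siDyskerin and 1719 ± 45.3 in siGAR1. It was low in siDyskerin alone, with a usage difference of -0.55 on the log2 scale (adjusted p = 6.9e-08 from edgeR), while the gene as a whole differed by -0.28. AVL9, of late secretory traffic, had a leading transcript, ENST00000459629, with 255 ± 16.3 normalized counts (SD, n = 3) in siControl, 246 ± 32.4 in siDyskerin and 321 ± 61.4 in siGAR1. It was highest in siGAR1, with a usage difference of -0.58 on the log2 scale (adjusted p = 1.6e-07 from edgeR). ZNF451, a SUMO ligase, had a coding transcript, ENST00000370708, with 3532 ± 222 normalized counts (SD, n = 3) in siControl, 4347 ± 133 in siDyskerin and 2947 ± 183 in siGAR1. Its usage was higher in siDyskerin by 0.39 on the log2 scale (adjusted p = 3.2e-06 from edgeR), with siControl between the knockdowns. The count of genes was 13 without siDyskerin replicate 2 and 16 without siDyskerin replicate 1 or 3 or siGAR1 replicate 1.

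Small nucleolar RNAs made up most of the rest of the difference. Of 64 SNORA genes, the H/ACA guides, 49 passed lower in siDyskerin (beside 2.78% of all genes tested) and all 64 were below 0, with a median of -1.58. Of 18 SCARNA genes, of Cajal bodies, 4 passed lower, and of 31 SNORD genes, the C/D guides, 0 passed, with a median of -0.66 and 12 at an unadjusted p under 0.05 in the edgeR test. Of all 18444 genes tested, 4707 were at such a p.

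The cell line was checked against marker lists. Of 20 osteosarcoma and mesenchymal markers 17 were tested and 0 passed in edgeR, with 6 at an unadjusted p under 0.05, and their summed level was 318870 to 340830 in siDyskerin and 326400 to 353590 in siGAR1. This sum weighs genes by levels that do not compare between genes, and VIM, CD44 and SPARC had the largest mean levels (207040, 61356 and 46610). TWIST1 was at 0 in all libraries, and SP7, COL1A2 and NT5E were near it, with mean levels of 0.14, 1.11 and 9.35. Of 27 epithelial markers 17 were tested and 0 passed, with 5 at an unadjusted p under 0.05. Their summed level was 99537 to 103040 in siDyskerin and 86987 to 97183 in siGAR1, and CLDN7 was at 0. These ranges did not overlap, and their part in the results was not tested. Of 24 blood, endothelial and neural markers 15 were tested and 0 passed, with 3 at an unadjusted p under 0.05, and their summed level was 6132 to 6860.2 and 5793 to 6265. CD3E, HBA1, HBB and SOX10 were among the 5 of these at 0 in all libraries. Other members of both lists were expressed. The epithelial markers KRT8, KRT18 and LAMB3 had mean levels of 43242, 24041 and 18550, and the neural marker TUBB3 of 5551. The marker counts at an unadjusted p under 0.05 stand beside 4126 of all 14175 protein-coding genes in the edgeR test.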

How the data were processed

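Nuclear RNA of U2OS cells was sequenced after rRNA depletion (RiboCop) and CORALL library preparation. Per the labels and methods, the authors trimmed reads with Trim Galore 0.6.4, removed rRNA and tRNA reads with Bowtie2 2.4.1 and quantified transcripts with Salmon 1.2.0 (stranded, with sequence and position bias correction) against GENCODE 27 on GRCh38. The deposited files hold, per transcript and library, estimated counts and TPM. Estimated counts were used, and the deposited TPM values entered only the length-scaled alternative.

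Estimated counts were rounded to whole numbers and summed per gene through the GENCODE 44 annotation. Of 200401 transcripts 97.7% matched, and unmatched transcripts held 3.69 to 3.84% of the estimated counts. Reads were found counted in every compatible transcript, so that genes are not compared with each other. For the same reason the sums of the 9 libraries, 48838756 to 90698675, are not numbers of reads. Genes were kept by filterByExpr, normalized by TMM and tested with edgeR 4.0.16 (quasi-likelihood, robust, R 4.3.3), in which all 9 libraries shared the estimate of spread and siControl had no weight. Calls required an adjusted p (Benjamini-Hochberg) under 0.01 with a log2 fold change beyond 1 in either direction. The method was tested on simulated data for this contrast over 18188 genes: 41 of 50 genes changed 1.5-fold and 50 of 50 changed 2-fold passed, and 3 unchanged genes passed. The changed genes were drawn only from those with a mean log2 CPM of 1 or more, and counts were simulated for each gene apart. These rates therefore do not cover genes of lower level, among them many of the called genes, or reads counted more than once.

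Genes were named by a rule: of called protein-coding genes whose mean log2 CPM was 1 or more and whose groups did not overlap the 12 highest and 12 lowest, up to 6 long noncoding genes per direction, the 4 smallest p of each list, 6 genes on opposite sides of siControl, 5 genes of transcript usage and those beside the fold threshold. The members and lists were chosen with earlier results of these data known. Promoters came from RefSeq on GRCh38.p14. Alternatives were DESeq2 1.42.0, other scalings, no filter, the 6 knockdown libraries alone, length-scaled TPM counts, 1 transcript per gene, no transcripts over small RNA genes, a replicate block and leaving out each library. A few genes are not reported here.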

Additional observations from a re-analysis of the deposited data

Results flagged for a closer look

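In 4 genes the knockdowns differed in opposite directions from siControl, each side passing its own test, and the difference between them was tested directly with edgeR: FAT3 (-1.67), TMEM64 (1.11), FZD6 (1.03) and TSC22D3 (1.37 on the log2 scale, siDyskerin minus siGAR1). The siDyskerin side of TMEM64 only just passed against siControl. Outside the genes used for the comparisons, 8 transcripts that matched no gene in the annotation used here were called. Of 2567 such transcripts that passed the filter on low counts, 3 were higher and 5 lower in siDyskerin.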

How the results depend on the processing

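No single-gene fold change that was followed across the alternatives changed direction. Counts were compared by size alone, and 34 of 233 comparisons of the main results moved in size. List medians near 0 could change sign. With TMM factors from protein-coding genes alone, that of the tricarboxylic acid cycle list went from 0.0093 to -0.0034 and that of the TGF-beta list from 0.0072 to -0.0054. Without the filter on low counts, 95 genes were called higher (80 protein-coding, 13 long noncoding) and 187 lower (110 protein-coding, 10 long noncoding). Over the lists by symbol, DESeq2 passed 96 members higher and 72 lower, beside 56 and 46. With 1 transcript per gene 11 long noncoding genes were called lower.

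Leaving out each library in turn gave 21 to 57 genes called higher (19 to 50 protein-coding, 1 to 7 long noncoding) and 60 to 96 lower (28 to 38 protein-coding, 3 to 5 long noncoding). List members that passed numbered 34 to 61 higher and 28 to 54 lower. Of the called protein-coding genes, 28 to 52 also passed for siDyskerin minus siControl and 7 to 18 for siGAR1 minus siControl. Transcript usage differed in 13 to 30 genes, 15 to 17 ATF4 genes passed, and the differences ranged from -3.04 to -2.94 for DKC1 and from 2.80 to 3.01 for GAR1. The calls of 27 of the 53 named called genes held under every alternative. In simulated counts of this design all 50 genes changed 2-fold passed the adjusted p and 25 were called, as the fold threshold lies at that size. Those genes all had a mean log2 CPM of 1 or more.

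Same-numbered siDyskerin and siGAR1 replicates deviated together little if at all (r across genes -0.0102, 0.06 and 0.0735). Same-numbered siDyskerin and siControl replicates had r of 0.104, 0.0739 and 0.0386, and siGAR1 and siControl replicates -0.0724, 0.000495 and 0.039. Such weak values cannot tell whether replicates of the same number were handled together. With the replicate number as a block, 39 genes were called higher and 89 lower (31 and 39 protein-coding).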
